A study of Mus musculus with 2 samples.

Results

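Spots of the fracture site bone were compared by how much osteoclast RNA they held. The spots were those of 2 formalin-fixed femur sections, 1 Control and 1 Loaded, whose barcodes the study lists as bone fracture site. Within each section alone, every spot was chosen by a score, the summed unique molecular identifiers (UMIs, each standing for 1 captured probe molecule) of Acp5 and Ctsk over all UMIs of the spot. The spots were thus selected on the measured values of these genes. The highest 1 part in 4 of the spots by this score is called osteoclast-rich below, and the lowest 1 part in 4 osteoclast-poor. Of 131 bone spots in the Control section 32 were rich and 32 poor, and of 146 in the Loaded section 36 and 36, which makes 136 of 277 bone spots and of 3398 spots under tissue in the series. Acp5 and Ctsk chose the spots, and their values below only describe the groups.

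Both sections came from female bone cell reporter mice, in which Ibsp and Acp5 carry fluorescent reporter tags, so that no section without the tagged alleles was measured. The mice received a femoral osteotomy with an external fixator at 12 weeks of age and were killed at 17 weeks, 5 weeks after surgery. From week 3 the Loaded mouse received cyclic loading of the femur, and the Control mouse received sham loading. Each condition was 1 section, so no test between conditions was possible, spots are not replicates, and every 95% interval below covers counting error only. A spot covers several cells or parts of cells, and fewer osteoclasts and less RNA per osteoclast cannot be told apart.

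Osteoclasts are multinucleated cells of the monocyte lineage that dissolve bone. They seal a patch of bone surface, acidify it through a proton pump and a chloride channel, and release cathepsin K and matrix metalloproteinases that cleave the collagen matrix. Their formation depends on CSF1 and on RANKL, which osteoblast-lineage cells supply, and on the factors PU.1, MITF, AP-1 and NFATc1 inside the cell. In fracture repair they remodel cartilage and woven bone of the callus.

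The rich Control spots held 497 Acp5 and 681 Ctsk UMIs and the poor ones 11 and 42. In the Loaded section these counts were 243 and 628 against 7 and 24. Scores of the rich spots ran from 28.5 to 309 per 10000 UMIs (median 59.8) in Control and from 34.0 to 190 (median 54.2) in Loaded. Poor spots reached 7.55 and 8.87, and 5 Control and 14 Loaded spots held neither gene. Around the limits, the next Control spots scored 7.62 and 27.7, and the next Loaded spots 8.96 and 33.94, against 33.97 for the last rich Loaded spot. The scores thus pass through the limits without a gap.

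Each of the marker genes was also used without the other. Every spot of the lowest 1 part in 4 by Acp5 alone held no Acp5 UMI, and such ties were ordered by depth. With Control spots ranked by Acp5 alone, Ctsk held 655 UMIs in the highest and 79 in the lowest 1 part in 4, a log2 ratio of 2.71 (95% interval 2.37 to 3.07). In Loaded these were 531 and 77 UMIs, with a log2 ratio of 2.09 (1.75 to 2.46). With spots ranked by Ctsk alone, the log2 ratio of Acp5 was 3.42 (2.94 to 3.95) in Control and 2.81 (2.10 to 3.61) in Loaded. Without block B2, described next, the Control ratios were 1.43 for Ctsk and 1.72 for Acp5. Acp5 encodes the tartrate-resistant acid phosphatase and Ctsk the collagen-cleaving cathepsin K, and the RNAs of both were therefore high in the same spots of both sections.

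The rich spots were clustered. They were also deeper than the poor ones as grouped here, a direction that turned in Control under other groupings, with ratios of median depth from 0.749 to 0.980. Each bone region was divided into 4 blocks. The letters A and B stand for the sides of a line along the region's long axis at the middle of its width. The numbers 1 and 2 stand for the ends along that axis. In Loaded this line did not follow the bands of bone spots, so that blocks A2 and B1 each held spots of both bands. Block B2 held 22 of the 32 rich Control spots, and block A1 held 22 of the 36 rich Loaded spots. The blocks were unequal, with 44 of all 131 Control bone spots in B2 and 51 of all 146 Loaded ones in A1. Poor spots were more scattered, with 13, 2, 10 and 7 in blocks A1, A2, B1 and B2 of Control and 7, 12, 7 and 10 in Loaded. Of the bone neighbours of rich spots, counted once for each rich spot they touch, 72.1% in Control and 53.8% in Loaded were rich. Among neighbours of poor spots these shares were 3.08% and 6.06%, and among those of all bone spots 23.4% and 26.5%. Counted once each, 28 of 52 Control bone spots with a rich neighbour were rich, and 32 of 73 in Loaded. The median depth was 3670.5 UMIs for rich and 3006.5 for poor Control spots, a ratio of 1.22, and 3182 against 2246 in Loaded, a ratio of 1.42. The lowest depth of a poor Loaded spot was 509 UMIs and that of a rich one 1624. In all, 139984 UMIs lay behind the rich and 110628 behind the poor Control spots, and 136470 and 72068 behind those of Loaded.

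**Figure D1:**
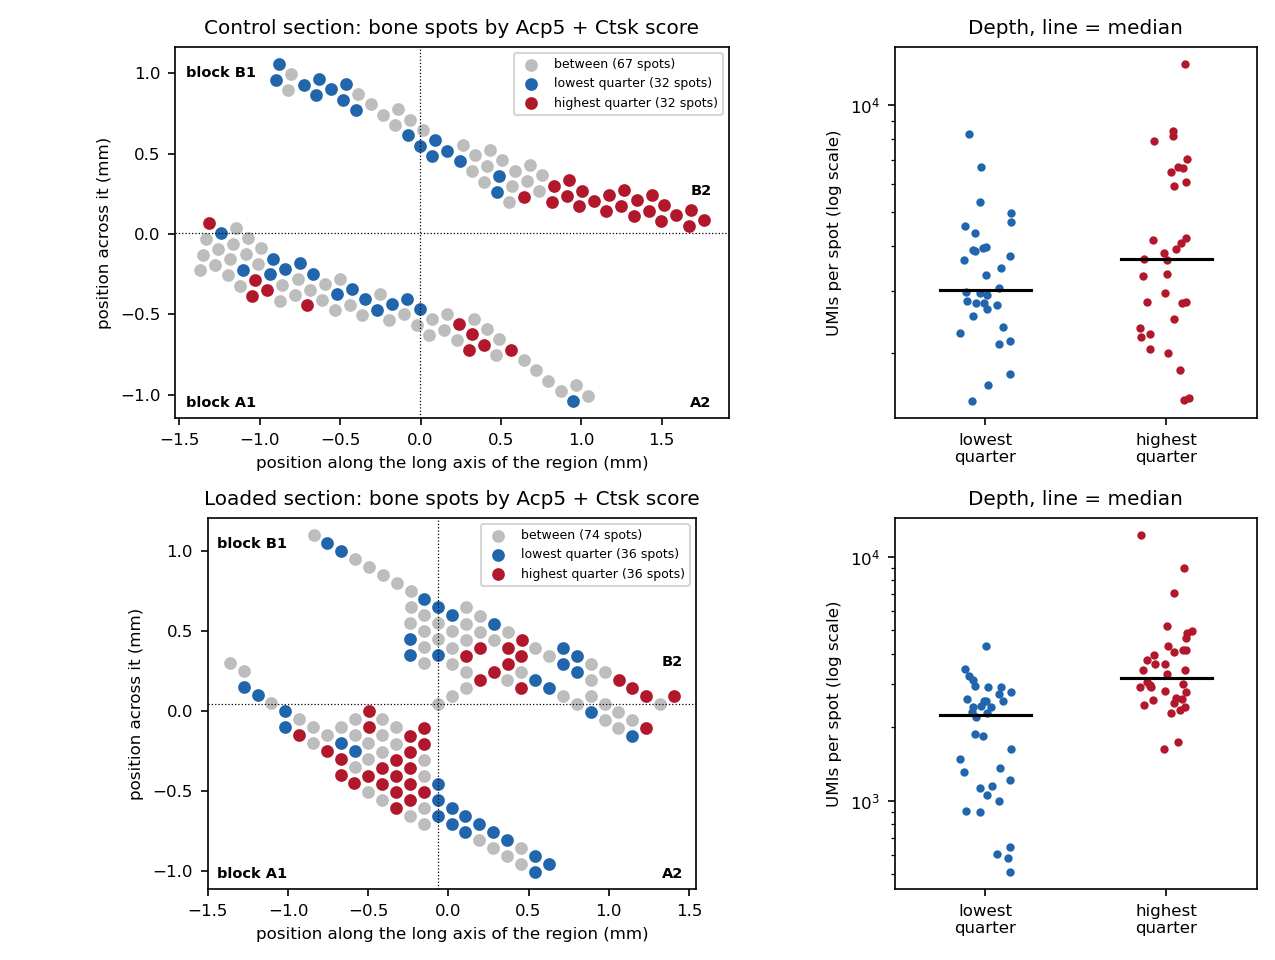
Bone spots of the Control (top) and Loaded (bottom) section at their grid positions in mm, with dotted lines between the 4 blocks. Red spots are the highest and blue spots the lowest 1 part in 4 by Acp5 and Ctsk score, and the right panels give the UMIs of each of these spots on a log scale with the median as a line. The red spots lie mostly in block B2 of Control (22 of 32) and block A1 of Loaded (22 of 36).

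All other genes were compared by their UMIs in rich and poor spots, each sum divided by the summed scran size factors of the spots. A level below is such a normalised UMI count per spot of average depth, and a log2 ratio is that of the rich over the poor level. Genes with at least 30 UMIs over both groups of a section were compared, and a gene is counted as higher or lower from a 2-fold ratio on. In Control 161 of 1483 genes were higher (10.9%) and 133 lower (8.97%). In Loaded 59 of 1240 genes were higher (4.76%) and 40 lower (3.23%). The Loaded split depended on the scaling, with 59.6% of the genes past 2-fold higher here, 72.1% with library totals (75 higher, 29 lower) and 81.0% with TMM factors (94 higher, 22 lower). Of 996 genes compared in both sections, 16 were higher in both (1.61%) and 3 lower in both (0.301%). Across these genes the log2 ratios of the sections had a Pearson's r of 0.34 and a Spearman's rho of 0.32, given as a description, since genes are not independent. They shared the sign in 62.8% of the genes. With rich and poor spots taken within each block, Pearson's r was 0.17.

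**Figure D2:**
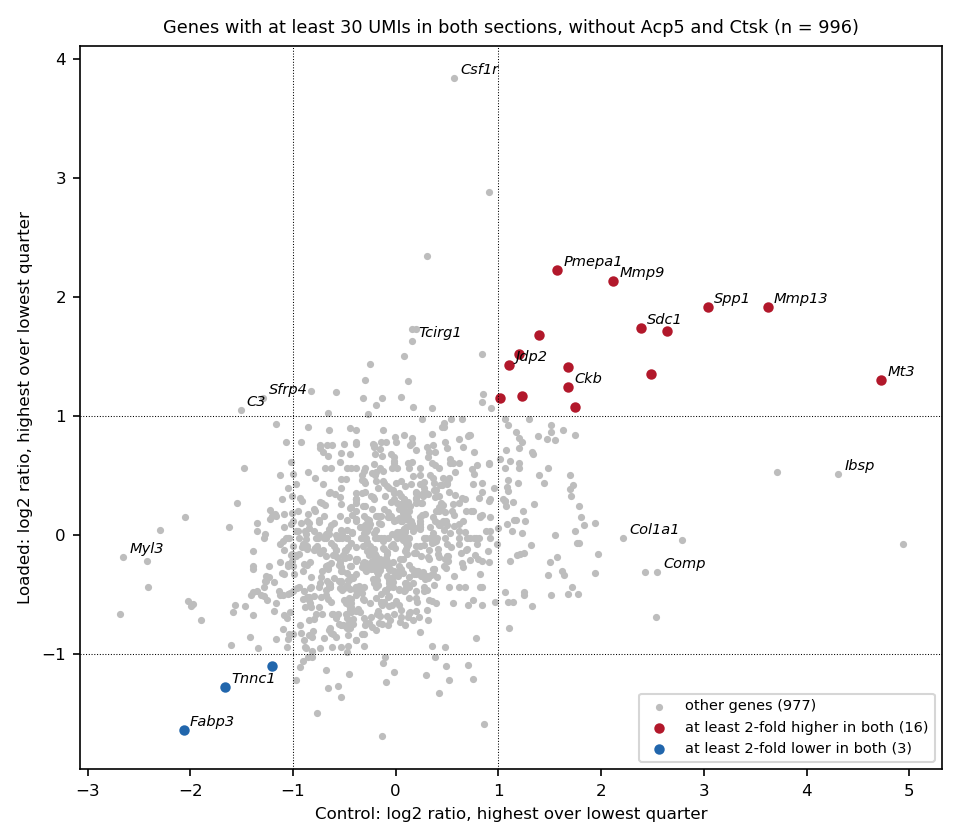
Log2 ratio of osteoclast-rich over osteoclast-poor spots in the Control (x axis) and the Loaded section (y axis) for 996 genes with at least 30 UMIs in each, without Acp5 and Ctsk. Dotted lines mark 2-fold, the 16 red genes are higher in both sections and the 3 blue ones lower in both, and the collagen gene Col1a1 lies at 2.21 in Control and -0.02 in Loaded.

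Matrix metalloproteinases led the genes higher in both sections. Mmp9, the gelatinase that osteoclasts secrete, held 255 UMIs in rich and 45 in poor Control spots, and 392 against 44 in Loaded. Its level over rich Control spots ran from 0 to 26.6 with a median of 5.49, and over poor ones from 0 to 7.09 with a median of 1.14. In Loaded it ran from 3.92 to 21.3 (median 9.07) in rich and from 0 to 12.2 (median 1.96) in poor spots. The spots overlapped in both sections, while every rich Loaded spot held the gene. The log2 ratio was 2.12 (1.66 to 2.61) in Control and 2.13 (1.68 to 2.61) in Loaded, about 4.34-fold and 4.38-fold. Without block B2 the Control ratio was 0.83, whereas leaving out any block of Loaded gave 2.07 to 2.17.

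Mmp13, a collagenase that hypertrophic chondrocytes and osteoblasts are known to make, held 225 against 14 UMIs in Control and 115 against 15 in Loaded. Rich spots reached a level of 20.1 in Control and 12.2 in Loaded, poor ones 5.06 and 4.41, and the median poor spot of both sections held none. The log2 ratio was 3.62 (2.85 to 4.52) in Control, 1.13 without block B2, and 1.91 (1.13 to 2.80) in Loaded. Within single blocks that held at least 4 rich and 4 poor spots, Mmp9 and Mmp13 were above 0 in all 4. In Control these log2 ratios were 2.86 and 5.93 in block B2 but 0.88 (-0.08 to 1.84) and 0.58 (-1.27 to 2.38) in block A1, where 4 spots were rich and the intervals reach below 0. In Loaded they were 2.13 and 1.34 in block A1 and 2.08 and 2.32 in block B2.

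Spp1 encodes osteopontin, a matrix phosphoprotein to which the osteoclast integrin binds and which osteoblasts, osteoclasts and macrophages make. It held 343 against 32 UMIs in Control and 650 against 85 in Loaded. Its level ran from 1.03 to 21.6 in rich and from 0 to 8.62 in poor Control spots, and from 0 to 41.7 and from 0 to 9.37 in Loaded. The log2 ratio was 3.04 (2.51 to 3.61) in Control and 1.91 (1.58 to 2.25) in Loaded. It was 1.46 without block B2 in Control and 0.71 without block A1 in Loaded. Over the 4 steps of the score from lowest to highest, the level of Spp1 was 1.03, 1.53, 2.14 and 8.42 in Control and 4.05, 6.44, 8.12 and 15.2 in Loaded. Mmp9 went from 1.44 over 1.14 and 2.14 to 6.26 in Control and from 2.10 over 3.15 and 3.76 to 9.18 in Loaded. In both sections the largest change of these genes was therefore that to the highest step. The levels increased at each step, except that Mmp9 in Control was lower at the second step than at the lowest.

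**Figure D3:**
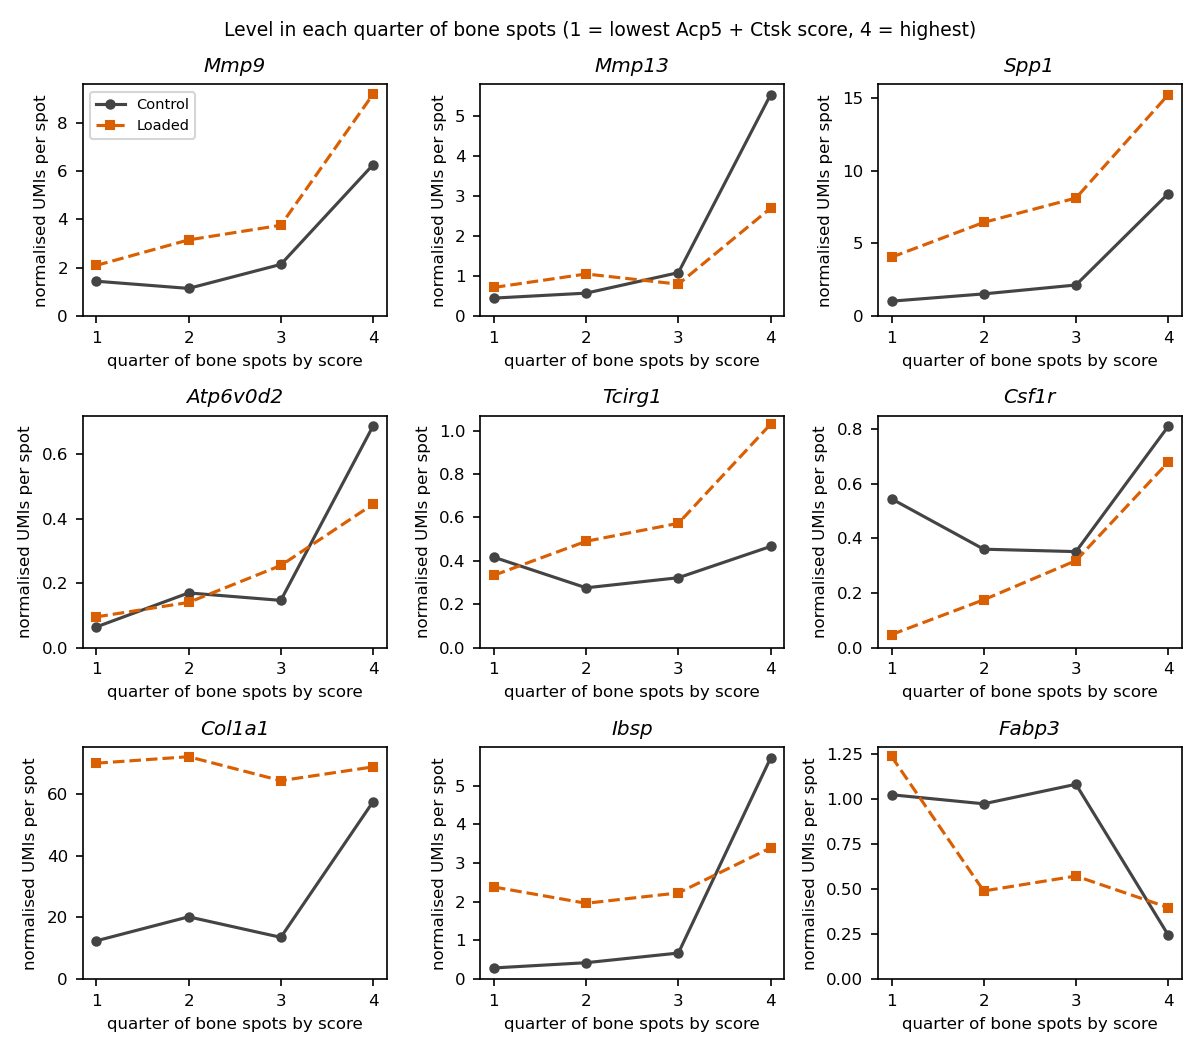
Level (normalised UMIs per spot, linear axes from 0) of 9 genes in the bone spots of each section, divided into 4 steps of about equal size by the Acp5 and Ctsk score (1 lowest, 4 highest). Mmp9 reaches 6.26 in Control and 9.18 in Loaded at the highest step, Col1a1 increases in Control only at that step (57.6) and stays between 64.4 and 72.2 in Loaded.

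The bases before the start of Ctsk, Mmp13 and Spp1 are shown because Ctsk defined the rich spots and Mmp13 and Spp1 followed Mmp9 as the genes of highest ratio over both sections. Each is the 150 bases before the RefSeq start (GRCm38.p6, plus strand, 5′ to 3′), for Spp1 before the first of 2 listed starts. Capitals mark matches on either strand to TGANTCA (AP-1, the same on both strands), ACCACA (RUNX, reverse TGTGGT) and GAGGAA (ETS factors such as PU.1, reverse TTCCTC), and no matches overlap.
Ctsk, chr3:95499060-95499209: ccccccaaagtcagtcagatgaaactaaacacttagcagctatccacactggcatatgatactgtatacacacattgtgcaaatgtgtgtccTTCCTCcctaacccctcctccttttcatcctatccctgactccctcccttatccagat
Mmp13, chr9:7272364-7272513: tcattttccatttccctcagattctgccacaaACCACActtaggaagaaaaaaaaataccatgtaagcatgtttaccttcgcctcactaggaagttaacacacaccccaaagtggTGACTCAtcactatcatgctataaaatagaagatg
Spp1, chr5:104434961-104435110: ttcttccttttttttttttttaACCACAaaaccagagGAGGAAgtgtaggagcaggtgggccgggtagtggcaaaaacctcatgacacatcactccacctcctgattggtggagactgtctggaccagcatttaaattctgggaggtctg
The AP-1 match of Mmp13 begins at position -35 from the start and its RUNX match at -118. Spp1 has a RUNX match at -128 and an ETS match at -113, and Ctsk an ETS match at -58. Of 32851 such windows in the table, 4.24% held the AP-1, 8.40% the RUNX and 14.5% the ETS letters. These matches are descriptions of sequence and say nothing of binding.

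Genes with roles in osteoclasts, other than Acp5 and Ctsk, were described with a list of 37. The list also holds general lysosomal proteases, so it is not specific to osteoclasts. Together they made up 0.978% of the UMIs of rich and 0.534% of those of poor Control spots, and 0.939% against 0.527% in Loaded. These sums, 1369 against 591 UMIs in Control and 1281 against 380 in Loaded, include Mmp9 with its counts given above. The 7 proteases, Mmp9 among them, held 887 against 356 of these UMIs in Control and 820 against 240 in Loaded. Over single spots the share ran from 0.215 to 1.89% in rich and from 0.278 to 1.12% in poor Control spots, so that the spots overlapped, as they did in Loaded with 0.481 to 1.76% against 0.155 to 0.874%. Only 16 members in Control and 13 in Loaded had 30 UMIs. Of these 5 were higher in Control, where 10.9% of all genes were, and 4 in Loaded, where 4.76% were, and none was lower. A member can reach this limit through the rich spots alone, so these counts favour higher members. The same holds for the counts of higher members in the other lists below. The median log2 ratio was 0.59 in Control and 0.26 in Loaded, beside -0.06 and -0.02 over all genes compared. It fell to 0.15 without block B2 of Control and to 0.064 without block A1 of Loaded, over 5 members each, and to 0.031 in Loaded with spots taken separately above and below the median depth. Mmp9 and Jdp2 were the members higher in both.

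For acid secretion, the most direct markers were sparse. Atp6v0d2, the osteoclast form of a proton pump subunit, held 28 UMIs in rich Control spots, 24 of them in block B2, and 2 in poor ones, and 19 and 2 in Loaded. The log2 ratio was 3.42 (1.44 to 6.54) in Control and 2.22 (0.17 to 5.37) in Loaded, where the gene did not reach 30 UMIs. Tcirg1, the pump subunit whose loss causes osteopetrosis, held 19 against 13 UMIs in Control, a log2 ratio of 0.16 (-0.93 to 1.30). In Loaded it held 44 against 7, a log2 ratio of 1.63 (0.47 to 3.02), or 0.88 without block A1. Car2, the carbonic anhydrase that supplies protons, was not higher in rich spots, with log2 ratios of -0.38 (-1.08 to 0.31) and -0.47 (-1.10 to 0.19). Car2 is also made by erythroid cells, and their part in its ratios was not tested. Slc4a2, the bicarbonate exchanger, lay at 0.84 (-0.07 to 1.82) and 0.36 (-0.60 to 1.41).

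Among proteases, Mmp14, a membrane-bound activator of other metalloproteinases, held 63 against 11 UMIs in Control (log2 ratio 2.13, 1.20 to 3.21) and 20 against 6 in Loaded (0.71, -0.66 to 2.32). Ctsz, a lysosomal carboxypeptidase, was higher in Control at 1.35 (0.64 to 2.10) and lay at 0.26 (-0.43 to 1.00) in Loaded. Without block B2 of Control these ratios were 0.76 for Mmp14 and 0.34 for Ctsz. The general lysosomal proteases Ctsb, Ctsd, Ctsl and Lgmn lay between -0.57 and 0.62 in both sections. Of 14 lysosome genes, 10 were compared in Control and 7 in Loaded, with medians of 0.41 and -0.18.

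Receptors, adhesion molecules and regulators of the osteoclast were mostly near the limit of detection. Csf1r, the CSF1 receptor, held 33 against 17 UMIs in Control, a log2 ratio of 0.57 (-0.31 to 1.51). In Loaded it held 29 UMIs over 23 of 36 rich spots and 1 UMI over the poor spots, a log2 ratio of 3.83 (1.24 to 9.19). The intervals of the sections overlap, and the difference between sections was not tested. Without block A2 of Loaded the poor spots held no Csf1r UMI, and a floor of 3 UMIs gave a log2 ratio of 1.69, which is not a bound. Itgb3, the β3 chain of the osteoclast integrin, held 16 UMIs in rich Control spots, 14 of them in block B2, and 0 in poor ones, and 15 against 1 in Loaded. With a floor of 3 UMIs for the poor spots, the Control ratio was 4.09-fold, a stand-in value and not a bound. Jdp2, an AP-1 family factor required for osteoclast formation, was higher in both sections, with 73 against 26 UMIs in Control (1.10, 0.44 to 1.81) and 60 against 11 in Loaded (1.42, 0.48 to 2.50). In Control this rested on block B2, without which the ratio was -0.82.

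Siglec15, a receptor that promotes fusion of precursors, was seen in 12 rich and no poor Control spots with 13 UMIs, 12 of them in block B2, but held 2 UMIs in the rich spots of Loaded. Oscar held 9 and 2 UMIs in rich spots of the sections, Calcr 5 and 6, and Ocstamp 5 in each, with at most 1 UMI in the poor spots. Tnfrsf11a, the RANK receptor, held 2 against 0 UMIs in Control and 10 against 1 in Loaded. The factors Nfatc1 and Mitf had at most 6 UMIs in any group, which is too few to show a difference at this depth. The same held for regulators made by other cells: Tnfsf11 (RANKL) held 6 against 1 and 7 against 3 UMIs, and its decoy receptor Tnfrsf11b (osteoprotegerin) 4 against 1 and 6 against 0. None of the 7 regulators reached 30 UMIs in either section. Not all sparse members are given here. Within block B2 of Control, the pump gene Atp6v0a1 lay at -1.48 (-3.69 to 0.85) and Tyrobp at -1.06 (-2.67 to 0.68). Atp6v0a1 lay at 0.32 (-2.53 to 5.77) in block A1 of Loaded. Of 5 fusion genes 3 were compared in Control, from -0.38 to 0.62, and 1 in Loaded, at -0.20.

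Of 12 genes of factors released by osteoclasts or exchanged with osteoblasts, 3 were compared in Control and 2 in Loaded. In Control 1 of the 3 was higher, beside 10.9% of all genes. This was Cthrc1, a secreted protein of osteoclasts and of matrix-forming cells, with 27 against 5 UMIs, 25 of the 27 in block B2 (log2 ratio 2.05, 0.65 to 3.78). It held 17 against 9 UMIs in Loaded (-0.11, -1.35 to 1.24). Tgfb1 lay at 0.99 (0.10 to 1.96) in Control and at 0.06 (-0.65 to 0.81) in Loaded, and Igf1 at 0.48 (-0.42 to 1.43) in Control. Pdgfb lay at 0.18 (-0.95 to 1.41) in Loaded.

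Macrophage genes were sparse. Of 13 members, 4 were compared in Control, with 1 lower, beside 8.97% of all genes, and a median log2 ratio of -0.72. In Loaded 3 were compared, with none past 2-fold and a median of 0.43. The lower member was the complement gene C1qc, with 20 against 31 UMIs in Control (-1.02, -1.91 to -0.16) and 28 against 9 in Loaded (0.61, -0.51 to 1.88). Cd68, which osteoclasts also express, lay at 0.80 (-0.12 to 1.78) and -0.08 (-1.10 to 1.01). The members Adgre1 and Lyz2 held at most 1 UMI in any group, which is too few to tell whether macrophages were present. The summed share of the list was 0.0822% in rich and 0.118% in poor Control spots and 0.114% against 0.0930% in Loaded. With spots taken within each block, these members had medians of -0.84 in Control and -0.47 in Loaded.

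**Figure D4:**
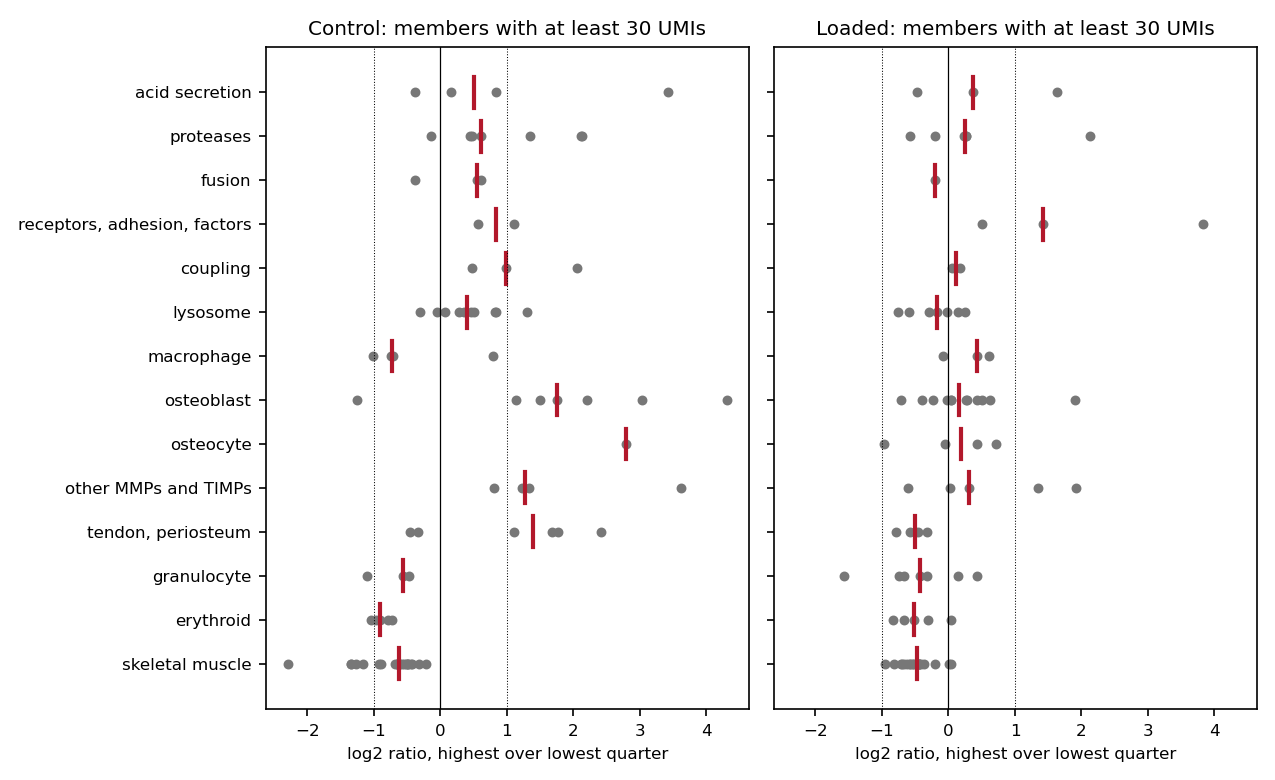
Log2 ratio of osteoclast-rich over osteoclast-poor spots for the members of 14 gene lists with at least 30 UMIs, in the Control (left) and the Loaded section (right). Each grey point is 1 gene, red lines are list medians and dotted lines 2-fold. The osteoblast list has a median of 1.75 in Control and 0.16 in Loaded, and the tendon and periosteum list 1.39 and -0.50.

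Bone matrix genes had high ratios in Control and ratios near 0 in Loaded, a difference that was not tested. In Control 6 of the 7 osteoblast genes compared were higher and 1 lower, beside 10.9% and 8.97% of all genes, with a median log2 ratio of 1.75. In Loaded 1 of 12, Spp1, was higher, beside 4.76% of all genes, with a median of 0.16. The list made up 5.02% of the UMIs in rich and 1.29% in poor Control spots, and 7.60% against 6.80% in Loaded. Col1a1, the main collagen chain of bone, held 2347 against 388 UMIs in Control. Its level ran from 3.14 to 171 (median 47.3) in rich and from 3.27 to 27.8 (median 12.1) in poor spots, a log2 ratio of 2.21 (2.06 to 2.37), and the spots overlapped. In Loaded the levels were 11.6 to 164 (median 45.4) and 3.86 to 411 (median 28.8), and the ratio was -0.02 (-0.12 to 0.07), with a poor spot as the highest of all. Ibsp, a sialoprotein of mineralizing bone whose locus carries a reporter in these mice, held 233 against 9 UMIs in Control (4.31, 3.36 to 5.46) and 145 against 50 in Loaded (0.51, 0.04 to 1.01). Sparc, which encodes osteonectin, lay at 1.51 (1.28 to 1.74) and -0.23 (-0.42 to -0.04), and Col1a2 at 1.75 (1.63 to 1.87) and 0.03 (-0.03 to 0.10).

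The Control values rested on 1 block. Without block B2, which leaves 10 rich spots, the median of the osteoblast list was 0.088, Col1a1 lay at -0.19 and Sparc at -0.07. Within block A1 of Control, with 4 rich and 13 poor spots, the log2 ratio was -0.69 (-1.32 to -0.09) for Col1a1 and -0.59 (-0.99 to -0.20) for Col1a2. Within block B2 of Loaded, with 13 rich and 10 poor spots, it was -1.52 (-1.70 to -1.35) for Col1a1, -1.09 (-1.22 to -0.96) for Col1a2 and -1.97 (-2.38 to -1.57) for Sparc. In block A1 of Loaded, where most rich spots lay, Col1a1 was at 0.33 (0.15 to 0.51). Collagen RNA was thus high beside osteoclast RNA in block B2 of Control and low beside it in block A1 of Control and block B2 of Loaded. With rich and poor spots taken within each block, the osteoblast median was 1.04 in Control and -0.52 in Loaded over the same members, and -0.71 in Loaded over the 9 that kept 30 UMIs.

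**Figure D5:**
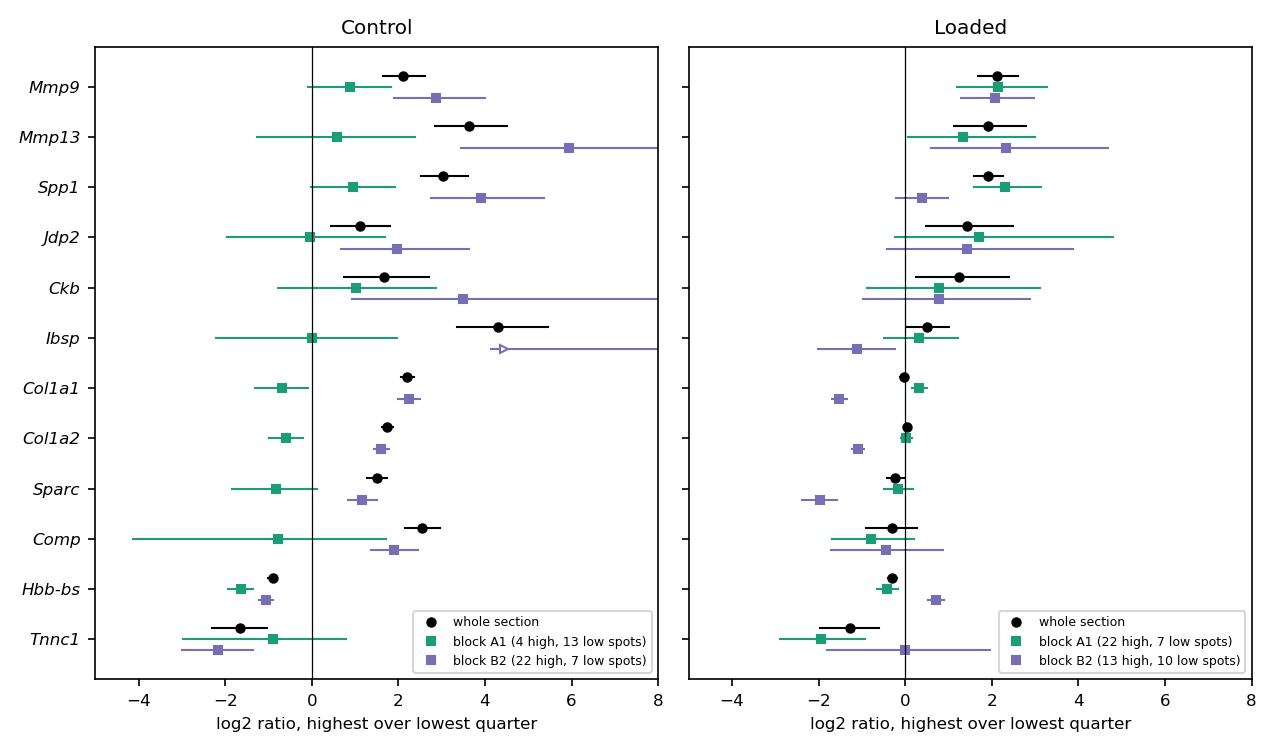
Log2 ratio of osteoclast-rich over osteoclast-poor spots for 12 genes in the whole section (black) and within the blocks that held at least 4 spots of each kind (green A1, violet B2), with 95% intervals for counting error that are cut at 8. The open arrow is a value from a floor of 3 UMIs for poor spots at 0, and its interval begins below it. Mmp9 lies above 0 in every block, and Col1a1 at 2.25 in block B2 of Control and at -1.52 in block B2 of Loaded.

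Bglap, the late osteoblast product osteocalcin, went against the other matrix genes in Control, with 12 against 22 UMIs and a log2 ratio of -1.26 (-2.41 to -0.18). In Loaded it held 332 against 214 UMIs (-0.39, -0.64 to -0.14). Its close relative Bglap2 is not analysed here. Of the osteocyte genes, Gja1, the gap junction protein connexin 43, was compared in Control and was higher, with 27 against 3 UMIs (2.79, 1.08 to 5.15) and 23 of the 27 in block B2. In Loaded 4 were compared and none passed 2-fold. Among these, Sost, the WNT inhibitor of mature osteocytes, lay at -0.97 (-1.82 to -0.12) with 26 against 25 UMIs, and Dmp1, which takes part in mineralization, at 0.72 (-0.02 to 1.52).

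Several other matrix genes had high ratios in Control. Of 8 chondrocyte genes 1, Comp, was compared in each section, and 3 held no UMI in either group of Control. Chad, the matrix protein chondroadherin, had the highest ratio of Control genes with at least 50 UMIs, with 129 against 1 UMI (6.63, 4.12 to 11.94) and 128 of the 129 in block B2. It held 8 against 0 in Loaded. Matn4, a matrilin, held 50 against 0 UMIs in Control, 12.8-fold higher with a floor of 3 UMIs for the poor spots, and 49 of the 50 lay in block B2. Col12a1, a collagen of periosteum and tendon, was higher at 3.71 (2.69 to 4.95), and lay at 0.53 (-0.32 to 1.45) in Loaded. Comp, a pentameric matrix protein of cartilage and tendon, lay at 2.55 (2.15 to 2.97) in Control and -0.32 (-0.90 to 0.28) in Loaded. Of the tendon and periosteum list 4 of 6 members were higher in Control and none of 6 in Loaded, beside 10.9% and 4.76% of all genes, with medians of 1.39 and -0.50. Fmod, Postn and Lum, genes of matrix proteins, were among these 4, at 2.42, 1.78 and 1.68. Without block B2 they lay at -0.34, -0.63 and -0.34, and Comp at -0.17. Of 8 other metalloproteinase and inhibitor genes, 3 of 4 were higher in Control and 2 of 5 in Loaded, Mmp13 in both, beside the same shares of all genes. Timp2 and Timp3, inhibitors of metalloproteinases, were higher in Control at 1.23 and 1.33 and lay at 0.02 and -0.60 in Loaded, where Timp1 was higher with 26 against 5 UMIs (1.35, -0.05 to 3.09).

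Further genes higher in both sections were named by a rule on the smaller of their ratios. Sdc1, a heparan sulfate proteoglycan, held 41 against 6 UMIs in Control (2.39, 1.14 to 3.92) and 61 against 9 in Loaded (1.74, 0.72 to 2.93). Of its UMIs in rich spots, 40 lay in block B2 of Control and 59 in block A1 of Loaded. Serpine2, a protease inhibitor, lay at 2.64 (1.57 to 3.91) and 1.71 (0.46 to 3.24), and without block B2 of Control at -0.17. Pmepa1, a target and inhibitor of TGFβ signalling, lay at 1.57 (0.76 to 2.46) and 2.22 (0.75 to 4.17), and without block B2 of Control at -0.21. Mt3, a metallothionein, held 69 UMIs over 21 rich spots and 2 UMIs in 1 poor spot of Control (4.72, 2.82 to 7.80), with 67 of the 69 in block B2, and 30 against 6 in Loaded (1.30, 0.01 to 2.85).

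Ckb, the brain form of creatine kinase, which osteoclasts are known to express, held 50 against 12 UMIs in Control (1.67, 0.74 to 2.72) and 48 against 10 in Loaded (1.24, 0.24 to 2.39). Leaving out any block kept Ckb above 2-fold in both sections, with 1.25 to 2.10 in Control and 1.06 to 1.46 in Loaded. Within blocks A1 and B2 of Control Ckb lay at 1.03 (-0.77 to 2.88) and 3.48 (0.92 to 8.82). In block A1 of Loaded it lay at 0.77 (-0.89 to 3.12). Ank, a membrane protein that controls extracellular pyrophosphate, lay at 1.20 (0.22 to 2.28) and 1.52 (0.25 to 3.06), and between 0.99 and 1.84 with any block left out. Within blocks A1 and B2 of Control Ank lay at 1.81 (-0.42 to 4.43) and 0.42 (-0.88 to 1.98). In block A1 of Loaded it lay at 0.79 (-1.21 to 3.92), so that these within-block intervals all hold 0. Lifr, a receptor of the interleukin 6 family, lay at 1.39 (0.13 to 2.85) and 1.68 (0.43 to 3.21). Wwp2, a ubiquitin ligase, lay at 1.67 (0.35 to 3.25) and 1.41 (0.01 to 3.14). In Loaded the stress response gene Nupr1 was also among the 5 highest, with 47 against 6 UMIs (1.94, 0.72 to 3.46).

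Muscle genes made up less of the RNA in osteoclast-rich spots. The 22 skeletal muscle genes made up 10.8% of the UMIs in rich and 16.5% in poor Control spots, and 7.88% against 10.6% in Loaded. Their median log2 ratio was -0.62 in Control, with 5 of 22 lower, and -0.47 in Loaded, with none past 2-fold. Of all genes compared, 8.97% were lower in Control and 3.23% in Loaded. The 3 genes lower in both sections were Fabp3, a fatty acid binding protein, Tnnc1, the slow troponin C, and Myot, a Z-disc protein. Fabp3 held 10 against 32 UMIs in Control and 17 against 26 in Loaded, with log2 ratios of -2.06 and -1.64. Tnnc1 lay at -1.66 (-2.31 to -1.04) and -1.28 (-1.96 to -0.61), and Myot at -1.20 (-1.86 to -0.57) and -1.11 (-1.81 to -0.40). The 5 lowest Control genes with at least 50 UMIs included Myl2, Myl3 and Myh7, which encode myosin chains, at -2.69, -2.65 and -2.29, against -0.67, -0.19 and 0.04 in Loaded. Within block A1 of Control these were at -0.78 (-3.30 to 1.22), -1.52 (-3.52 to 0.06) and -0.48 (-1.21 to 0.21). The others of the 5 were Myoc and Tnxb, at -2.42 and -2.41 in Control and -0.22 and -0.44 in Loaded.

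Muscle share moved with the osteoclast contrast, and its part in the other results was not tested beyond the following values. With rich and poor spots taken separately above and below the median muscle share, the ratios of Mmp9, Mmp13 and Spp1 were 2.09, 3.53 and 2.95 in Control and 2.20, 2.01 and 1.96 in Loaded. Taken separately above and below the median depth, they were 2.31, 3.60 and 2.88, and 2.38, 2.02 and 1.37. Within each block they were 1.77, 2.74 and 2.30, and 2.57, 2.27 and 1.53. The muscle median was -0.32 and -0.39 with the split by muscle share, and 0.20 in Control and -0.26 in Loaded within blocks. The direction in Control differed between blocks. With the rich and poor spots of the whole section, all muscle members lay below 0 in block B2, such as Ckm at -1.09 and Tnnc2 at -1.36. In block A1, with 4 rich spots, all but Myh2 and Myh7 lay above 0, with Ckm at 0.41 and Tnnc2 at 0.51.

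Haemoglobin and other erythroid genes, which mark red cells and their precursors, mostly had ratios below 0. In Control 1 of the 5 compared passed 2-fold, where 8.97% of all genes were lower, and none did in Loaded. The median of the 5 erythroid genes compared was -0.91 in Control and -0.52 in Loaded, and 0.01 in Loaded with spots taken within blocks. Hbb-bt, whose probes may not separate it from the other β-globin copies, lay at -1.04 (-1.30 to -0.78) and -0.84 (-1.07 to -0.60). Granulocyte genes had medians of -0.57 over 3 members and -0.42 over 7. Within blocks the 7 Loaded members had a median of 0.63. Mki67, a marker of dividing cells, held 13 against 29 UMIs in Loaded (-2.18, -3.25 to -1.19) and 11 against 14 in Control, where it was below 30. Of 10 proliferation genes 2 were compared in Loaded, with 1 lower (Mki67), beside 3.23% of all genes, and the other above 0, at 0.26. In Control none was compared. The histone genes Hist1h1a and Hist1h3d lay at -0.82 and -0.89 in Control and -0.98 and -0.88 in Loaded, and are members of a family with near-identical copies.

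Among the other genes lowest over both sections were the muscle genes Myh2, Ldb3 and Neb and the mitochondrial genes Coq10a and Ndufv3, with log2 ratios from -1.61 to -0.81 in both sections. In Loaded the 5 lowest with at least 50 UMIs also held Fbxl5, a sensor of cellular iron, at -1.59 (-2.42 to -0.78), and Jph1, a junctional protein of muscle, at -1.27 (-2.06 to -0.49). Fbxl5 lay at 0.86 (-0.21 to 2.02) in Control, and Jph1 at -0.56.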

How the data were processed

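Visium spatial gene expression was measured in 1 Control and 1 Loaded FFPE mouse femur section. The authors deposited raw UMI counts of 19465 genes per spot, made with SpaceRanger 2.0.0 (matrix header) on mm10, with no normalization. The submitters' processing notes also name R 4.3.1 and Seurat. Barcodes of bone spots came from the study's supplementary list. Visium arrays carry the same position barcodes, so that 557 of them occur in both sections. Section images and scale factors were not used here.

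Spot size factors came from the scran package (version 1.30.0, R 4.3.3), fitted over all bone spots of both sections. Python 3.11.15 was used for sums and ratios, with the libraries numpy (2.4.6), scipy (1.17.1) and pandas (2.3.3); matplotlib (3.10.9) drew the figures. Intervals at the 95% level are exact conditional binomial for ratios and exact binomial for shares, and cover counting error only. Spots of equal score were ordered by depth, the deeper counted as lower. A group at 0 was set to 3 UMIs. The functions were tested on simulated data with known changes. No test between groups was run, since each condition is 1 section and spots are not replicates.

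Named genes are list members, the 12 per direction with the largest smaller ratio over both sections among those whose intervals excluded 0 in both, and in each section the 5 per direction with the largest ratio and at least 50 UMIs. Some genes that this rule names are not reported here. The members and the 22 gene lists were chosen with earlier results of these data known, so that no list or pattern is independent support. As alternatives, spots were scaled by their totals, by trimmed means of M values (TMM, own code), by totals that left out the 20 highest genes or the muscle genes, or each given the same weight. Spots were also grouped as the highest and lowest 1 part in 3 or in 2, by each marker alone, after thinning to 1000 UMIs, within blocks, or separately above and below the median depth or muscle share. Each block was left out, and gene limits of 10 and 100 UMIs were tried.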

Additional observations from a re-analysis of the deposited data

Results flagged for a closer look

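Many genes had opposite directions in the sections, and 4 results are given here: the 2 genes at least 2-fold in opposite directions with intervals that excluded 0 in both sections, and the 2 lists with at least 3 members compared and medians of opposite sign, each at least 0.4 from 0. None of these differences was tested. The WNT inhibitor gene Sfrp4 was lower in osteoclast-rich spots of Control, with 59 against 111 UMIs and a log2 ratio of -1.30 (-1.78 to -0.83), and higher in those of Loaded, with 54 against 12 UMIs and 1.15 (0.22 to 2.18). Within the blocks that held at least 4 spots of each kind, Sfrp4 lay at -0.39 and -1.22 in Control and at 0.22 and 1.32 in Loaded. The interval of the first of these, block A1 of Control, ran from -1.91 to 0.97 and holds 0. Those of both Loaded blocks also hold 0, whereas that of block B2 of Control ran from -1.87 to -0.55. The complement gene C3 lay at -1.51 (-2.69 to -0.43) in Control and at 1.05 (0.03 to 2.21) in Loaded. Within blocks A1 and B2 of Control C3 lay at -1.78 (-7.30 to 1.26) and -1.65 (-3.10 to -0.17). In block A1 of Loaded it lay at 0.47 (-1.21 to 2.83), an interval that holds 0. Both genes were chosen after their values were seen.

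The median log2 ratio of the macrophage list was -0.72 in Control and 0.43 in Loaded, over 4 and 3 genes. With spots taken within each block it was -0.84 and -0.47, and with spots taken separately above and below the median depth -0.75 and -0.13, so that the opposite direction was lost. That of the tendon and periosteum list was 1.39 in Control and -0.50 in Loaded, over 6 genes each. Within blocks it was 0.55 and -0.81.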

How the results depend on the processing

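No paired analysis was possible because each group is 1 section. Precision is limited by counts, since most osteoclast genes held under 30 UMIs, and by 1 section per condition. Where a value changed, the cause was not tested.

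The 161 higher and 133 lower Control genes became 98 and 81 with the highest and lowest 1 part in 2 of the spots, 78 and 47 within blocks, 30 and 49 without block B2 (483 genes compared), 683 and 529 with at least 10 UMIs, and 39 and 31 with at least 100. With Ctsk alone 232 were lower. The 59 higher and 40 lower Loaded genes became 94 and 22 with TMM factors, 8 and 13 without block A1 (391 genes compared), 507 and 465 with at least 10 UMIs, and 5 and 1 with at least 100. With equal weight for every spot 106 were higher, and without block B2 62 were lower. TMM factors moved the median of all Loaded genes from -0.02 to 0.15.

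The osteoblast median of 1.75 in Control was 1.29 and 0.84 with 1 part in 3 and in 2, 1.48 after thinning, 1.04 within blocks, 1.63 with the split by muscle share, 0.088 without block B2 and 1.51 with at least 10 UMIs. In Loaded it went from 0.16 to -0.71 within blocks and -0.57 without block A1. The Loaded median was also below 0 after thinning (-0.47), with the split by depth (-0.34) and with 1 part in 2 (-0.15). The same held without block A2 (-0.14) and with the split by muscle share (-0.059), and it was above 0 under the other alternatives. The ratio of median depths of 1.22 in Control was 0.894 and 0.923 with 1 part in 3 and in 2, 0.749 after thinning and 0.980 with the split by depth. That of 1.42 in Loaded was 0.988 with the split by depth and 2.167 without block B2.

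Ctsk ranked by Acp5 in Control was 2.29 and 1.86 with 1 part in 3 and in 2, 2.24 within blocks, 3.27 without block A1 and 1.43 without block B2. Acp5 ranked by Ctsk was 2.81 with 1 part in 2, 4.38 without block A1 and 1.72 without block B2. In Loaded these were 1.38 and 1.68 with 1 part in 2. The median of the osteoclast list, 0.59 in Control and 0.26 in Loaded, stayed above 0 under every alternative run but came near it, at 0.15 without block B2 and 0.30 within blocks in Control, and in Loaded at 0.031 with the split by depth, 0.064 without block A1 and 0.097 within blocks.

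Without block B2 of Control, genes past 2-fold changed sign, with Bglap at 0.16, Col1a1 -0.19, Comp -0.17, Fmod -0.34, Jdp2 -0.82, Lum -0.34, Mb 0.22, Pmepa1 -0.21, Postn -0.63, Serpine2 -0.17, Sparc -0.073, Tcap 0.043, Thbs4 -1.60, Timp2 -0.62, Tpm2 0.14 and Tspan4 -0.21. With 1 part in 2, Camp in Control was at 0.11 and Igkc in Loaded at 0.12. After thinning, Igkc and Tnnc1 in Loaded were at 0.22 and 0.095. These were 19 of 132 results for the genes named by rule and the list members past 2-fold. Genes under 2-fold, or with under 10 UMIs left, were not counted, and several of them also changed sign, such as Acta1 in Control, at -0.89, which reached 0.55 with 1 block left out.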

Other observations

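Lists not described above were sparse. For their counts of lower members, the shares over all genes compared were 8.97% in Control and 3.23% in Loaded. Of 10 endothelial genes 1 was compared in each section, with a log2 ratio of -0.97 in Control and 0.42 in Loaded. Of 8 adipocyte genes 2 were compared in Control and 3 in Loaded, with medians of -0.85 and -0.94 and 1 lower member in Loaded. Of 8 Schwann cell genes 2 were compared in Control, with a median of -1.22 and 1 lower member, and none in Loaded. Of 10 B and plasma cell genes 3 were compared in Loaded, with 2 lower and a median of -1.02. Of 7 MHC class II genes 1 was compared in Control, at -0.84, and 4 in Loaded, with a median of 0.24.

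Spots outside the bone region also held Acp5 and Ctsk RNA. Of those with at least 500 UMIs, 317 of 1767 in Control (17.9%, exact binomial 95% interval 16.2 to 19.8%) and 77 of 1285 in Loaded (5.99%, 4.76 to 7.43%) reached the score of the lowest osteoclast-rich bone spot of their section. Of those next to a bone spot, 18 of 134 in Control (13.4%) and 14 of 135 in Loaded (10.4%) did so. The tissue under these spots was not identified here.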
